A study of Mus musculus with 12 samples.

Results

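The collagen gene family was followed through differentiation of MC3T3 sc4 cells, bone-forming precursor cells of mouse skull origin. Members were all rows of the deposited gene table whose name is Col, a number, a and a number, which gave 43 of 23358 rows. They were 11 fibrillar, 9 network, 9 FACIT, 6 type VI, 4 transmembrane, 2 multiplexin and 2 other genes, and 7 of them (Col2a1, Col9a1, Col9a2, Col9a3, Col10a1, Col11a1, Col11a2) are cartilage types. The row of Emid2, an older symbol of Col26a1, does not match this pattern. The cells (passage 12, strain C57BL/6) were kept in osteogenic medium with 50 µg/ml ascorbic acid and 4 mM β-glycerol phosphate, which all groups, vehicle included, received. RNA was taken on day 1 or day 6 after vehicle, 10 or 50 ng/ml of the bone-inducing growth factor BMP2, 5 µM GSK126, or GSK126 with either BMP2 dose. GSK126 inhibits EZH2, the histone H3 methyltransferase of Polycomb repressive complex 2. Each of the 12 conditions had 1 library of 1 cell line, so no single condition has a replicate. Separate cultures are not stated in the labels. The main model adds up effects of GSK126 and of each BMP2 dose within each day. Its p-values rest on what that sum leaves over among these 12 libraries. This remainder holds non-additive action of the agents as well as scatter, which may be technical, and these cannot be told apart.

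Collagens are secreted proteins whose α chains wind into helices that need ascorbate-dependent prolyl hydroxylation to be stable. Fibrillar collagens assemble into the fibrils of bone, skin and cartilage. Type I is the main fibrillar collagen of bone, type V starts fibril assembly, type III is abundant in soft tissue, and types II and XI are the fibrillar collagens of cartilage. FACIT collagens (fibril-associated collagens with interrupted helices) coat fibrils. Network collagens form sheets, as type IV does in basement membranes and type X around hypertrophic chondrocytes, and type VI forms beaded microfilaments around cells.

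Libraries held 74301112 to 113744802 counts, of which 8.96% to 21.66% were of Rn45s, the ribosomal RNA precursor. The summed level of 5 osteoblast markers (Runx2, Sp7, Alpl, Ibsp, Bglap) was 174.9 to 425.8 CPM (a count scaled to library size) on day 1 and 607.6 to 5368 on day 6. Of 43 collagen genes, 34 reached 1 CPM in at least 2 libraries and were tested, 26 of them with 1 CPM in all 12 libraries. The other 8 tested genes reached it in some libraries only, Col24a1 in those of day 6 alone, so their inclusion depended on the groups in which they were high. The 9 untested genes were Col4a4, Col6a4, Col6a5, Col6a6, Col9a2, Col9a3, Col10a1, Col19a1 and Col28a1. Tests used edgeR's quasi-likelihood fit over 12056 genes with Benjamini-Hochberg adjustment at 0.05. All adjusted p-values below come from it unless another tool is named, and ± gives the standard error of a log2 fold change. Treatment effects are means over the libraries of a day that share the treatment, and the GSK126 and BMP2 effects share libraries.

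Collagen genes took a larger share of counts in every day 6 library than in any day 1 library. Together they held 6.63% of all gene counts in the vehicle library of day 1 and 9.33% in that of day 6. On day 6, 10 and 50 ng/ml BMP2 gave 9.30% and 13.4% without GSK126, and 0, 10 and 50 ng/ml gave 9.70%, 10.6% and 14.7% with it. On day 1 the other 5 libraries lay between 6.89% and 7.77%. Type I genes made up 64.9% of collagen counts in the day 6 vehicle library and 87.5% in the day 6 library with 50 ng/ml BMP2 and GSK126. No replicate stands behind these shares, so they describe single libraries.

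**Figure D1:**
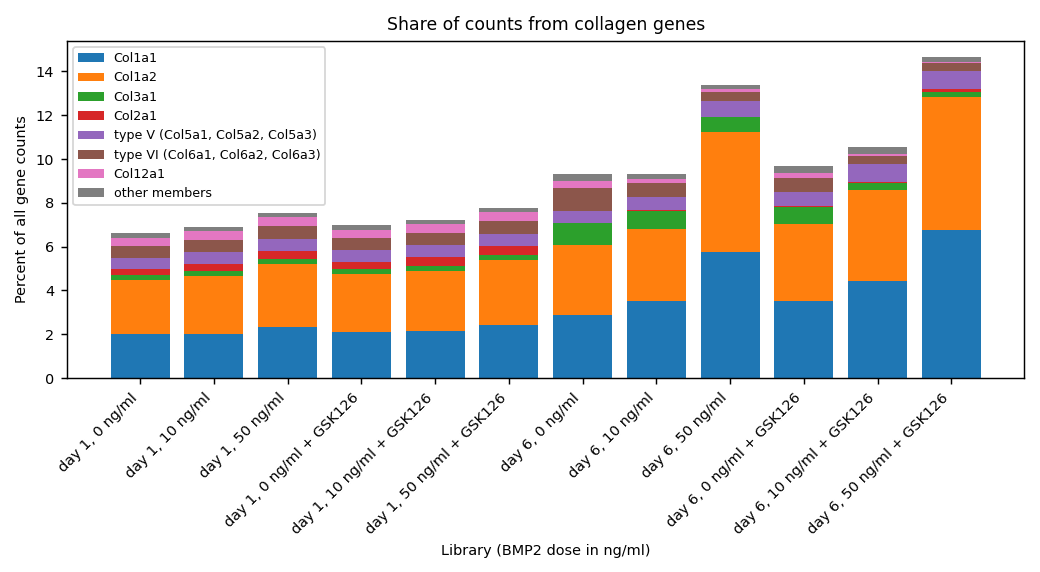
Bars give the percent of all gene counts from collagen genes in each of the 12 libraries, stacked by gene or type. The 2 tallest bars are the day 6 libraries with 50 ng/ml BMP2, at 13.4% and 14.7%, and most of their height is Col1a1 and Col1a2.

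Levels between genes are compared as RPKM, the authors' read count per unit of gene length and sequencing depth. Of 43 genes, 8 exceeded 100 RPKM in all 12 libraries, and 17 stayed under 1 RPKM in all of them. The 8 were the type I genes Col1a1 and Col1a2, the type V genes Col5a1 and Col5a2, Col3a1, and the type VI genes Col6a1, Col6a2 and Col6a3. Col1a1 and Col1a2 led in every library and no other collagen gene exceeded 1432 RPKM in any of them. Col10a1, the hypertrophic chondrocyte collagen, lay between 0.0186 and 0.147 RPKM (3 to 27 read pairs) in the 12 libraries. Of the other untested genes, Col9a2 did not exceed 25 read pairs in any library, Col9a3 47, Col4a4 29, Col6a4 47, Col6a5 25, Col6a6 13, Col19a1 8 and Col28a1 42.

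**Figure D2:**
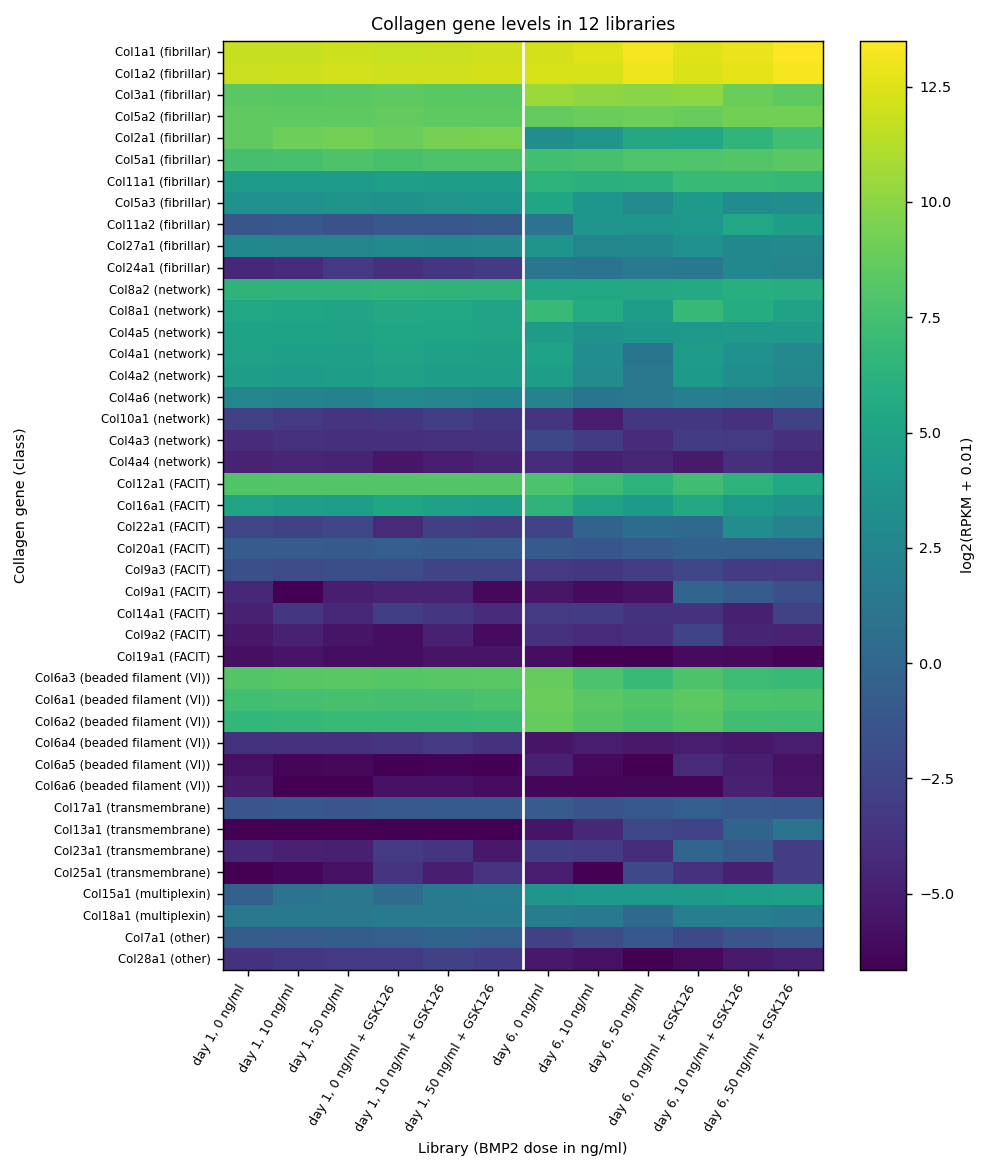
Rows are the collagen genes grouped by class and columns the 12 libraries by day, GSK126 and BMP2 dose, with colour for log2(RPKM + 0.01). The type I rows are brightest in every column, and Col2a1 falls from 378 to 699 RPKM on day 1 to 9.94 to 167 on day 6.

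Upstream sequences are shown for 5 genes that changed with day or treatment, chosen after their values were seen, because their start regions differ in CpG number. Each is the 250 bases before the RefSeq start in GRCm38.p6, printed in the direction of transcription. Capitals mark matches to 4 motifs on either strand, none of which contains another. The core bound by RUNX factors was searched as TGTGGT and the GC box as GGGCGG. The CCAAT box was searched by those letters and the TATA box as TATAAA. The windows are Col3a1 (chr1:45311288-45311537, plus strand), Col11a2 (chr17:34038888-34039137, plus strand), Col8a1 (chr16:57754738-57754987, minus strand), Col9a1 (chr1:24177360-24177609, plus strand) and Col13a1 (chr10:61979109-61979358, minus strand). None of these windows overlaps an annotated exon, and the deposited start of Col11a2 lies 299 bases downstream of the RefSeq start.
Col3a1: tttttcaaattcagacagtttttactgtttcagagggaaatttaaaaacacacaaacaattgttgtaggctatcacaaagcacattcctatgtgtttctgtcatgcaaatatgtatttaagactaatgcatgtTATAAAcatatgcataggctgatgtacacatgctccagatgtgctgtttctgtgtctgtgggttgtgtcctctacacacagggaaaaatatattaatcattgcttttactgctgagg
Col11a2: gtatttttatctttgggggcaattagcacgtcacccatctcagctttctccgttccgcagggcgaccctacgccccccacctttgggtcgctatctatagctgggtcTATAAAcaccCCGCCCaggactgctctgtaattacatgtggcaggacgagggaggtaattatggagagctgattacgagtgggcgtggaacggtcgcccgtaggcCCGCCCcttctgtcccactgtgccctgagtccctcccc
Col8a1: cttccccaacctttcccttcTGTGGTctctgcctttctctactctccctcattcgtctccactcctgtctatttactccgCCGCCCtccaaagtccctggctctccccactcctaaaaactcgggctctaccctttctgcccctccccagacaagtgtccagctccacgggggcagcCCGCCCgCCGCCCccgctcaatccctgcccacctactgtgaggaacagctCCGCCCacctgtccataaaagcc
Col9a1: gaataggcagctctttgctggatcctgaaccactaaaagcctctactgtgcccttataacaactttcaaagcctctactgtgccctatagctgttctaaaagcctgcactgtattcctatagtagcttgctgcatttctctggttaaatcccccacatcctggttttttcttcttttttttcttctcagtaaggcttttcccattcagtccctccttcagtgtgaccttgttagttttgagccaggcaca
Col13a1: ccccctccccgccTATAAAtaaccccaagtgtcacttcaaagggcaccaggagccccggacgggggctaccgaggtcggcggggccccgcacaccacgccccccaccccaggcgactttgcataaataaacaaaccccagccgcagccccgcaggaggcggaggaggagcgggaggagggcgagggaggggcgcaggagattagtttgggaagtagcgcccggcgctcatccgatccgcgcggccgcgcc
The windows of Col3a1 and Col9a1 hold 0 CpG dinucleotides, whereas those of Col8a1, Col11a2 and Col13a1 hold 10, 14 and 24. RefSeq windows were matched for 35 of 43 collagen genes. Col1a1, Col2a1, Col4a3, Col5a2, Col9a3, Col12a1, Col14a1 and Col22a1 were not matched. The median CpG number of the matched windows was 10, against 6 over all 32851 windows of that table. For collagen genes only the window nearest the deposited start was kept, whereas that table was taken whole, so the sets are not built alike. GC boxes occurred in 21 of 35 collagen windows (60%) and in 32.74% of all windows. CCAAT stood in 12 (34.29%, against 33.85%), TATAAA in 5 (14.29%, against 12.37%) and TGTGGT in 2 (5.71%, against 14.05%). A match describes letters only, and factor binding was not measured.

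Type I genes rose with time and, on day 6, with BMP2 dose. Col1a1 (chr11:94936270-94951856 in mm10) and Col1a2 (chr6:4505697-4541543) encode the chains of type I collagen. Without GSK126, Col1a1 stood at 3299, 3447 and 4024 RPKM on day 1 at 0, 10 and 50 ng/ml BMP2, and at 4796, 5873 and 9442 on day 6. With GSK126 it stood at 3579, 3687 and 4172 RPKM on day 1 and at 5937, 7586 and 11542 on day 6. Every day 6 library exceeded every day 1 library, and the day 6 level increased with each dose at both GSK126 levels. Col1a2 lay between 3737 and 4696 RPKM on day 1, and on day 6 at 4838, 5080 and 8156 without GSK126 and at 5429, 6417 and 9498 with it. Day 6 exceeded day 1 by a log2 fold change of 1.20 ± 0.07 (adjusted p = 5.5e-06) for Col1a1 and by 0.82 ± 0.07 (adjusted p = 3.4e-05) for Col1a2, in 6 of 6 matched pairs each. On day 6 BMP2 raised Col1a1 by 0.79 ± 0.11 (log2, adjusted p = 0.0026) and Col1a2 by 0.61 ± 0.11 (adjusted p = 0.007). Raising the dose from 10 to 50 ng/ml added 0.81 ± 0.12 (adjusted p = 0.0096) and 0.78 ± 0.12 (adjusted p = 0.011) on the log2 scale. With GSK126 on day 6, the log2 differences were 0.25 ± 0.10 for Col1a1 (adjusted p = 0.1) and 0.17 ± 0.10 for Col1a2 (adjusted p = 0.24), and neither passed. When only the 6 day 6 libraries were fitted, neither BMP2 rise passed (adjusted p = 0.11 and 0.17) and neither dose difference passed. The dose call of Col1a1 was also lost without the day 6 library with 10 ng/ml BMP2 alone and without each of 3 day 1 libraries (vehicle, and 10 ng/ml with or without GSK126). That of Col1a2 was lost without the same day 6 library and without any of the 6 day 1 libraries. The RPKM ratio of Col1a1 to Col1a2 was 0.842 to 0.897 on day 1 and 0.992 to 1.22 on day 6, so the 2 days did not overlap.

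Type V genes, whose chains are built into type I fibrils, moved in different directions on day 6. Col5a2 stood at 400, 472 and 525 RPKM on day 6 without GSK126 and at 441, 589 and 581 with it, for 0, 10 and 50 ng/ml. Col5a1 stood at 171, 199 and 249 RPKM without GSK126 and at 241, 275 and 333 with it. Both were higher with BMP2 than without it at either GSK126 level. BMP2 raised them on day 6 by 0.51 ± 0.09 and 0.49 ± 0.09 (log2, adjusted p = 0.0059 and 0.0067), and neither rise passed in the fit of day 6 libraries alone (adjusted p = 0.092 and 0.077). Col5a3, the third type V gene, fell from 35.8 RPKM in the day 6 vehicle library to 15.6 and 8.24 with 10 and 50 ng/ml BMP2. With GSK126 it stood at 20.3, 8.81 and 9.63 RPKM. The BMP2 effect on Col5a3 was -1.25 ± 0.16 (log2, adjusted p = 0.002, lower in 4 of 4 matched pairs).

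Col3a1 (chr1:45311538-45349706), the type III gene, had the opposite course to the type I genes within day 6. On day 1 it lay between 312 and 368 RPKM in all 6 libraries. On day 6 Col3a1 stood at 1432, 1162 and 955 RPKM without GSK126 and at 1097, 495 and 358 with it, for 0, 10 and 50 ng/ml BMP2. The vehicle library was highest and the library with 50 ng/ml and GSK126, at 358 RPKM, was inside the day 1 range. The mean difference between days was 1.56 ± 0.15 (log2, adjusted p = 6.2e-05). GSK126 changed Col3a1 on day 6 by -1.09 ± 0.21 (log2, adjusted p = 0.011) and BMP2 by -0.80 ± 0.22 (log2, adjusted p = 0.034). The GSK126 call was lost in the day 6 fit and without either day 6 library with 10 ng/ml. The BMP2 call was lost in the day 6 fit, without any of the 6 day 1 libraries, and without 4 of the day 6 libraries (both with 10 ng/ml, GSK126 alone, and 50 ng/ml with GSK126). The RPKM ratio of Col3a1 to Col1a1 was 0.299 in the day 6 vehicle library and 0.031 with 50 ng/ml BMP2 and GSK126. In these bulk samples fewer cells of a type and less RNA per cell cannot be told apart.

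**Figure D3:**
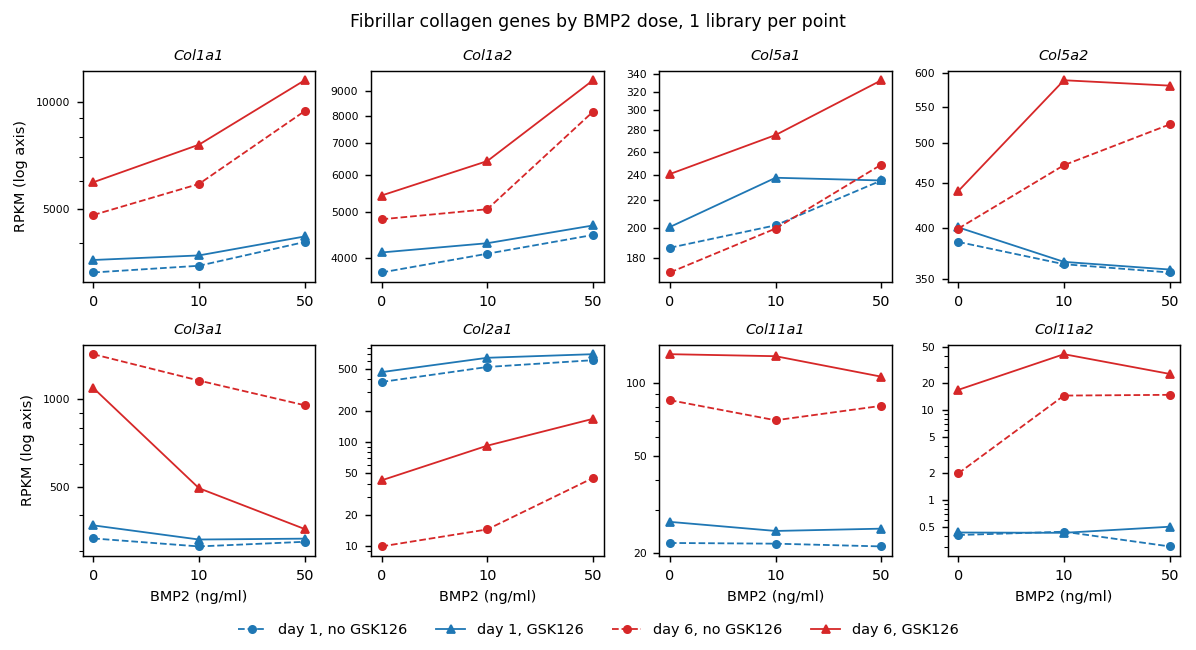
Each panel plots the level of 1 fibrillar collagen gene (RPKM, log axis) against BMP2 dose (evenly spaced, 0, 10 and 50 ng/ml), with 1 library per point, colour for day and solid lines for GSK126. Col1a1 rises with dose on day 6 to 9442 and 11542 RPKM while Col3a1 falls to 955 and 358, and every Col2a1 point of day 6 lies under every point of day 1.

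The fibrillar collagens of cartilage split by day. Col2a1 (chr15:97975602-98004724), which encodes type II collagen, stood at 378, 527 and 613 RPKM on day 1 without GSK126 and at 470, 646 and 699 with it. On day 6 Col2a1 stood at 9.94, 14.5 and 45.2 RPKM without GSK126 and at 42.9, 92.4 and 167 with it. All 6 day 1 libraries lay above all 6 of day 6, a log2 difference of -3.51 ± 0.12 (adjusted p = 5.2e-07). Within day 6 the lowest value was vehicle and the highest was 50 ng/ml BMP2 with GSK126. GSK126 raised Col2a1 on day 6 by 2.15 ± 0.17 (log2, adjusted p = 0.00026) and BMP2 by 1.61 ± 0.18 (adjusted p = 0.0012), and both calls held in every alternative run. The step from 10 to 50 ng/ml added 1.41 ± 0.20 (log2, adjusted p = 0.008), a call lost in the day 6 fit and held in the other alternatives. On day 1 the BMP2 difference of 0.56 ± 0.17 did not pass (adjusted p = 0.14).

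Type XI genes were higher on day 6, opposite to Col2a1. Col11a1 lay between 21.4 and 26.9 RPKM on day 1. On day 6 Col11a1 stood at 85.1, 70.4 and 80.7 RPKM without GSK126 and at 132, 129 and 106 with it, with no overlap between the GSK126 groups. Its day difference was 2.29 ± 0.08 (log2, adjusted p = 6.2e-07) and its GSK126 difference on day 6 was 0.56 ± 0.11 (adjusted p = 0.012). Col11a2 (chr17:34039437-34066242) lay between 0.306 and 0.507 RPKM on day 1. On day 6 Col11a2 stood at 1.98, 14.5 and 14.8 RPKM without GSK126 and at 16.8, 41.9 and 25.3 with it. The vehicle library was far below the other 5 of day 6, and the highest value came with 10 ng/ml BMP2 and GSK126. Col11a2 rose between days by 5.38 ± 0.36 (log2, adjusted p = 9.8e-06), with GSK126 on day 6 by 1.69 ± 0.44 (adjusted p = 0.028) and with BMP2 on day 6 by 1.94 ± 0.49 (adjusted p = 0.026). Neither treatment call of Col11a2 passed in the fit of day 6 alone or without either day 6 library with 10 ng/ml. Its GSK126 call was also lost without any of the 6 day 1 libraries, and its BMP2 call without any of the 4 day 1 libraries that did not receive 50 ng/ml. The GSK126 call of Col11a1 was lost in the day 6 fit and without either of the same 2 libraries. The RPKM ratio of Col11a2 to Col11a1 was 0.0144 to 0.0204 on day 1 and reached 0.324 on day 6.

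Markers of chondrocytes other than collagens were measured beside these genes. The summed level of 8 such markers was 46.1 to 73.8 CPM on day 1 without GSK126 and 30.2 to 54.4 on day 6, and with GSK126 it was 49.0 to 73.2 and 40.7 to 51.9. Sox9 made up most of this sum on day 1 (42.02 CPM in the vehicle library), and Sox9 with Hapln1 did on day 6. Acan, the main cartilage proteoglycan, had 0 read pairs in 11 libraries and 2 in the day 6 library with 50 ng/ml BMP2 and GSK126. Matn1, a cartilage matrix protein, had 34 read pairs in the day 6 library with GSK126 alone and 0 to 6 in the other 11. Of the 4 markers tested (Sox9, Comp, Matn3, Hapln1), 2 were higher and 2 lower on day 6 than on day 1, and 1 rose with each agent on day 6. Sox9, the chondrocyte transcription factor, fell by 1.06 on the log2 scale between days. That 1 was Hapln1, a link protein, which rose with GSK126 on day 6 by 1.35 ± 0.35 (log2, adjusted p = 0.028) and with BMP2 by 1.64 ± 0.39 (adjusted p = 0.02). Their part in the changes of Col2a1, Col11a1 and Col11a2 was not tested.

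Col24a1 and Col27a1 are the remaining fibrillar genes. Col24a1, a fibrillar collagen of developing bone, had 14 to 53 read pairs per library on day 1 and 758 to 3242 on day 6. Its level on day 6 was 2.45, 2.06 and 3.14 RPKM without GSK126 and 2.83, 6.86 and 5.67 with it. The rise between days was 5.95 ± 0.24 (log2, adjusted p = 9.2e-07). The GSK126 difference on day 6 was 0.85 ± 0.25 (adjusted p = 0.041), a call lost without any of the 6 day 1 libraries, without any day 6 library with BMP2, and in the day 6 fit. Col27a1 was highest in the day 6 libraries without BMP2, at 13.5 and 11.6 RPKM, and lay between 5.92 and 7.20 RPKM in those with BMP2.

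The type IV genes Col4a1 and Col4a2, which encode the main basement membrane chains, fell with BMP2 on day 6. Both lie on chr8 in mm10 (11198423 to 11312826 and 11312829 to 11449287), head to head with 2 bases between the deposited rows. Their annotated exons share 22 bases on opposite strands, 0.29% and 0.33% of the exonic length of each. The strand setting of the counting is not given in the sources used here, so reads in those bases cannot be told apart. Col4a1 lay between 26.6 and 34.6 RPKM on day 1. On day 6 Col4a1 stood at 32.5, 9.48 and 2.28 RPKM without GSK126 and at 21.8, 11.4 and 7.06 with it, for 0, 10 and 50 ng/ml. Both libraries without BMP2 lay above all 4 with it, and the level with 50 ng/ml alone was 0.0703 of vehicle. Col4a2 stood at 24.9, 8.35 and 2.71 RPKM and, with GSK126, at 19.7, 10.2 and 6.51. The BMP2 difference on day 6 was -1.92 ± 0.32 for Col4a1 (log2, adjusted p = 0.0055) and -1.70 ± 0.22 for Col4a2 (adjusted p = 0.0022), and both calls held in every alternative run. With GSK126 on day 6 the log2 differences were 0.35 ± 0.32 (adjusted p = 0.45) and 0.32 ± 0.22 (adjusted p = 0.31), which did not pass. Both signs turned when either day 6 library with 50 ng/ml was left out, to -0.17 and -0.16 for Col4a1 and to -0.031 in both cases for Col4a2. The RPKM ratio of Col4a1 to Col4a2 stayed between 0.845 and 1.31 over the 12 libraries.

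Of the other type IV genes, Col4a5 and Col4a6 were lower on day 6 than on day 1 as means over the 6 treatments. Col4a5 and Col4a6, chains of specialised basement membranes, lie head to head on chrX with 1342 bases between the deposited rows. Col4a5 lay between 30.6 and 38.0 RPKM on day 1 and between 12.0 and 20.9 on day 6, with no overlap between days. Its BMP2 difference on day 6, -0.09 ± 0.16 (log2, adjusted p = 0.7), did not pass. Col4a3 had 20 to 101 read pairs per library, and Col4a4 had 6 to 29.

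Type VIII genes encode short-chain network collagens, and the 2 chains diverged. Col8a1 (chr16:57624256-57754737) lay between 33.9 and 45.8 RPKM on day 1. On day 6 Col8a1 stood at 124, 53.9 and 24.0 RPKM without GSK126 and at 112, 56.0 and 30.7 with it. The dose order was the same at both GSK126 levels, and the 2 libraries at each dose lay close together. BMP2 changed Col8a1 on day 6 by -1.47 ± 0.06 (log2, adjusted p = 4.9e-05), and 50 against 10 ng/ml by -0.86 ± 0.07 (adjusted p = 0.0025, lost in the day 6 fit alone). The GSK126 difference was 0.02 ± 0.06 (log2, adjusted p = 0.84). Col8a2 lay between 85.3 and 91.9 RPKM on day 1 and between 40.6 and 63.5 on day 6. The RPKM ratio of Col8a1 to Col8a2 therefore ran from 0.379 to 0.498 on day 1 and from 0.513 to 3.05 on day 6.

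Among FACIT collagens, Col12a1 and Col16a1 fell with both agents on day 6. Col12a1, which encodes a FACIT of tendon and bone surfaces, lay between 259 and 277 RPKM on day 1. On day 6 Col12a1 stood at 222, 144 and 82.5 RPKM without GSK126 and at 157, 81.1 and 41.4 with it. Each dose step and each addition of GSK126 went with a lower value. The log2 differences on day 6 were -0.85 ± 0.13 for GSK126 (adjusted p = 0.0038), -1.10 ± 0.13 for BMP2 (adjusted p = 0.0014) and -0.72 ± 0.15 for 50 against 10 ng/ml (adjusted p = 0.031). The dose call was lost in the day 6 fit, without either day 6 library with 10 ng/ml and without any day 1 library. Col16a1 lay between 25.02 and 36.2 RPKM on day 1. On day 6 Col16a1 stood at 85.5, 31.0 and 20.1 RPKM without GSK126 and at 46.8, 19.8 and 12.0 with it. Its differences on day 6 were -0.83 ± 0.06 for GSK126 (log2, adjusted p = 0.00022) and -1.55 ± 0.06 for BMP2 (adjusted p = 4.9e-05). Both GSK126 calls and both BMP2 calls held in every alternative run. On day 1 BMP2 changed Col16a1 by -0.40 ± 0.06 (log2, adjusted p = 0.023), a call lost without any of the 6 day 1 libraries.

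Col22a1, Col9a1 and Col20a1 were higher with GSK126 on day 6. Col22a1 (chr15:71798476-72034227), a FACIT of tissue junctions, had 16 to 67 read pairs per library on day 1. On day 6 Col22a1 stood at 0.158, 0.894 and 1.41 RPKM without GSK126 and at 1.16, 9.22 and 4.88 with it. Both libraries with BMP2 and GSK126 lay above all others. Its log2 differences on day 6 were 2.57 ± 0.38 for GSK126 (adjusted p = 0.0037) and 2.84 ± 0.44 for BMP2 (adjusted p = 0.0042), calls that held in every alternative run. Col9a1 (chr1:24177610-24252738), a type IX cartilage gene, had 0 to 8 read pairs in each day 1 library and 3, 1 and 2 in the day 6 libraries without GSK126. In the day 6 libraries with GSK126 it had 212, 148 and 66 read pairs at 0, 10 and 50 ng/ml BMP2. The groups did not overlap and the GSK126 difference passed (adjusted p = 0.0019), but with 3 or fewer pairs on one side no fold is given. Col9a1 reached 1 CPM only in those 3 libraries, and it was tested only through them. Its highest count lay in the library with GSK126 alone, where the cartilage gene Matn1 had 34 read pairs, and the part of cartilage markers in this result was not tested. Col20a1 lay between 0.408 and 0.583 RPKM on day 6 without GSK126 and between 0.714 and 0.767 with it, a call lost in the day 6 fit and without any single library other than the 2 of day 6 with 50 ng/ml. Col14a1 had 8 to 54 read pairs per library, and no test of it passed.

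**Figure D4:**
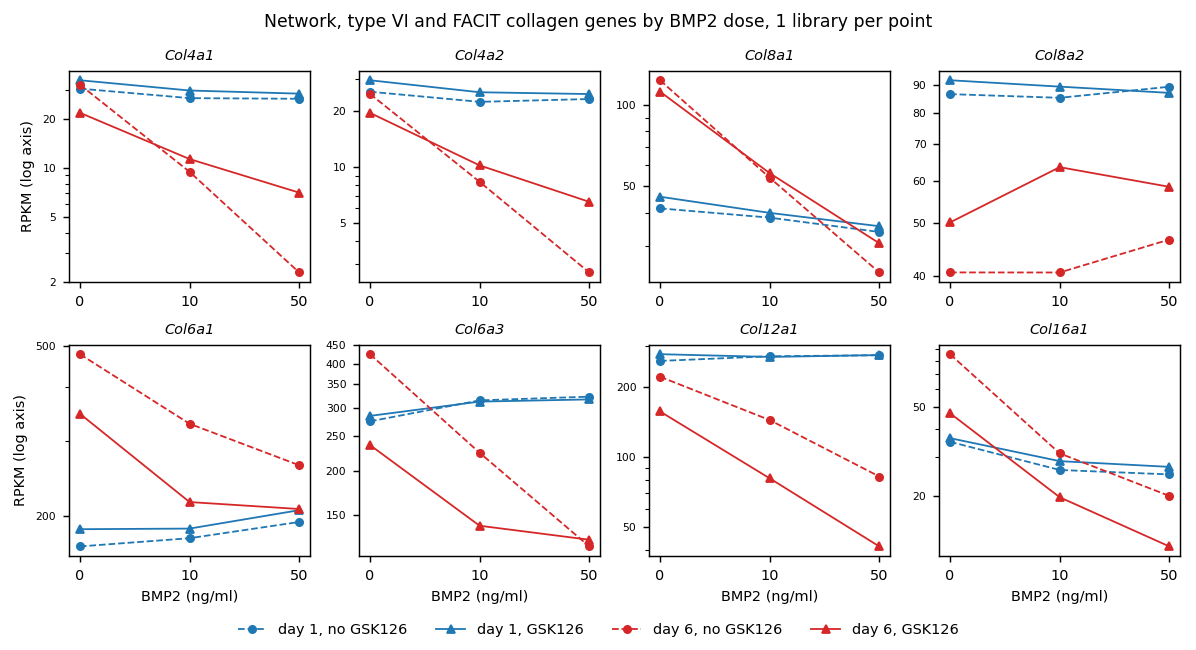
Each panel plots the level of 1 network, FACIT or type VI collagen gene (RPKM, log axis) against BMP2 dose (0, 10 and 50 ng/ml), with 1 library per point, colour for day and solid lines for GSK126. Col4a1, Col8a1, Col12a1 and Col16a1 fall with dose on day 6, whereas their day 1 lines stay within 26.6 to 34.6, 33.9 to 45.8, 259 to 277 and 25.02 to 36.2 RPKM.

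The 3 tested type VI genes were highest in the day 6 vehicle library and fell with each agent on day 6. Col6a1 stood at 170 RPKM in the day 1 vehicle library, and on day 6 at 478, 329 and 263 without GSK126 and at 347, 216 and 208 with it. Col6a2 stood at 105 RPKM in the day 1 vehicle library, and on day 6 at 416, 272 and 207 without GSK126 and at 291, 163 and 162 with it. Col6a3 stood at 275 RPKM in the day 1 vehicle library, and on day 6 at 425, 225 and 123 without GSK126 and at 236, 140 and 128 with it. Over all 6 treatments Col6a1 and Col6a2 were higher on day 6 and Col6a3 was lower (-0.43 ± 0.09, log2, adjusted p = 0.0034 in edgeR and 0.056 in DESeq2). Within day 6 all 3 tested type VI genes fell with GSK126 and all 3 fell with BMP2. For Col6a1 these differences were -0.54 ± 0.06 (log2, adjusted p = 0.00092) and -0.57 ± 0.06 (adjusted p = 0.00088). The GSK126 call of Col6a3 was lost with DESeq2, in the day 6 fit and without either day 6 library with 10 ng/ml. The RPKM ratio of Col6a3 to Col6a1 was 1.53 to 1.77 on day 1 and 0.466 to 0.890 on day 6. The untested Col6a4 lay between 0.0623 and 0.0899 RPKM on day 1 and between 0.0114 and 0.0209 on day 6. Smooth muscle markers also moved on day 6. The summed level of 5 of them was 525 to 1413 CPM without GSK126 and 224.8 to 707.8 with it, after 1679 to 2174 on day 1. Acta2 made up most of this sum, with 1993 CPM in the day 1 vehicle library and 1282 in that of day 6. Of the 3 tested, Acta2 and Tagln fell with each agent on day 6 and Des rose with each. With GSK126 Acta2 fell by 1.36 and Tagln fell by 0.67 on the log2 scale, and Des rose by 0.65. Their part in the falls of Col3a1, Col12a1 and the type VI genes was not tested.

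Transmembrane collagens did not exceed 2.05 RPKM in any library. Col13a1 (chr10:61838498-61979108), a collagen of cell adhesion sites, had 0 read pairs in all 6 day 1 libraries. On day 6 Col13a1 had 2, 6 and 30 read pairs without GSK126 and 26, 169 and 350 with it, for 0, 10 and 50 ng/ml. Its count increased with dose at both GSK126 levels, and at each dose it was higher with GSK126. Both differences passed on day 6 (adjusted p = 0.0019 for GSK126 and 0.0044 for BMP2), and no fold is given because vehicle held 2 pairs. Col13a1 reached 1 CPM only in the 2 day 6 libraries with both agents, and it was tested only through them. With either of these left out it was not tested. Col23a1 had 6 to 31 read pairs per library on day 1. On day 6 Col23a1 had 41, 28 and 15 without GSK126 and 307, 190 and 39 with it, so that the count was lower at each higher dose. Its rise with GSK126 on day 6 was 2.23 ± 0.42 (log2, adjusted p = 0.0094) and was lost without the day 6 library with 10 ng/ml alone. Col23a1 reached 1 CPM only in the day 6 libraries with GSK126 at 0 and 10 ng/ml, and it too was tested only through them. With either of these left out Col23a1 was not tested. The BMP2 difference of Col23a1 was -1.36 ± 0.41 (log2, adjusted p = 0.045), a call lost in the day 6 fit, without any day 1 library, and without the day 6 libraries with 10 ng/ml alone or with 50 ng/ml and GSK126. Col25a1 had 0 to 79 read pairs, and its call between days (adjusted p = 0.043) held in 6 of the 15 alternatives in which it was tested. Col25a1 reached 1 CPM in only 2 libraries, both of day 6, and was tested only through them. Col17a1, a hemidesmosome collagen, lay between 0.340 and 0.621 RPKM.

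Col15a1, Col18a1 and Col7a1 belong to smaller classes. Col15a1 (chr4:47208012-47313165), a multiplexin of basement membrane zones, stood at 0.730, 2.06 and 2.57 RPKM on day 1 without GSK126 and at 1.32, 3.04 and 3.46 with it. On day 6 Col15a1 stood at 14.1, 17.7 and 17.2 RPKM without GSK126 and at 18.5, 24.1 and 26.6 with it. It rose with BMP2 on day 1 by 1.47 ± 0.08 (log2, a call held in every alternative run) and between days by 3.54 ± 0.05 (adjusted p = 4.8e-08). Its GSK126 difference on day 1 was 0.55 ± 0.07 with adjusted p = 0.75 in edgeR and 2.8e-06 in DESeq2. Col18a1 lay between 1.25 and 3.98 RPKM. Col7a1, the anchoring fibril collagen, lay between 0.552 and 0.889 RPKM on day 1 and between 0.137 and 0.542 on day 6. Within day 6 it rose with BMP2 by 1.36 ± 0.18 (log2, adjusted p = 0.0023).

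Counted over the 34 tested genes, 23 were higher and 9 lower on day 6 than on day 1, as means over the 6 treatments. Over all 12056 genes 78% passed in that comparison, 40.5% higher and 37.5% lower. Among the higher ones, Col4a3, Col9a1, Col13a1, Col23a1, Col24a1 and Col25a1 reached 1 CPM in day 6 libraries only. They were tested only through the day in which they were high, and the splits and the collagen median given here include them. Fibrillar genes gave 10 higher and 1 lower of 11, the lower one being Col2a1, and network genes gave 2 higher and 5 lower of 7. In the day 6 vehicle library the lower network genes Col4a1, Col4a2 and Col4a6 stood at 32.5, 24.9 and 5.26 RPKM. These values lay inside their day 1 ranges of 26.6 to 34.6, 22.5 to 29.5 and 4.71 to 7.10 RPKM. The other lower network genes, Col4a5 and Col8a2, did not overlap between days. The median log2 change was 0.62 for the collagen genes and 0.03 for all genes. With scaling by library size alone the split over all genes was 3071 higher and 6235 lower between days, 1843 and 1181 for GSK126 on day 6, 807 and 3412 for BMP2 on day 6, 345 and 2115 for the higher BMP2 dose, and 268 and 776 for the BMP2 difference between days.

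On day 6 GSK126 raised 12 collagen genes and lowered 7, where 28.3% of all genes passed (14.3% higher, 14% lower). BMP2 raised 11 and lowered 13, where 28.7% of all genes passed (13.3% higher, 15.5% lower). By class, GSK126 raised 5 and lowered 2 of 11 fibrillar genes, and raised the cartilage types Col2a1, Col11a1 and Col11a2. The cartilage gene Col9a1 passed too, but it was tested only because it reached 1 CPM in the GSK126 libraries of day 6, and Col9a2, Col9a3 and Col10a1 were not tested. Col13a1 and Col23a1, also among the 12, were tested only through day 6 libraries with GSK126, which for Col13a1 also held BMP2. BMP2 raised 6 and lowered 3 of 11 fibrillar genes, and raised 1 and lowered 4 of 7 network genes. The median log2 difference over the 34 genes was 0.29 for GSK126 and -0.19 for BMP2, against -0.0017 over all genes in both. In the fit of day 6 libraries alone 10 collagen genes passed for GSK126 and 15 for BMP2, where 7.91% and 8.72% of all genes passed. Of the 19 GSK126 calls 9 held in every alternative run that tested the gene, and of the 24 BMP2 calls 15 did. Col13a1 is counted in both, but without either day 6 library with both agents it was not tested.

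Set side by side on day 6, Col23a1 rose with GSK126 and fell with BMP2, whereas Col2a1, Col22a1 and Col13a1 rose with each. Col8a1, Col4a1 and Col4a2 passed the test for BMP2 and not for GSK126, and this difference between agents was not tested. Between 10 and 50 ng/ml on day 6, 6 collagen genes were higher and 3 lower at the larger dose, where 11.8% of all genes passed (5.33% higher, 6.47% lower). In the fit of day 6 libraries alone 0 collagen genes passed for dose, where 0.0498% of all genes passed.

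**Figure D5:**
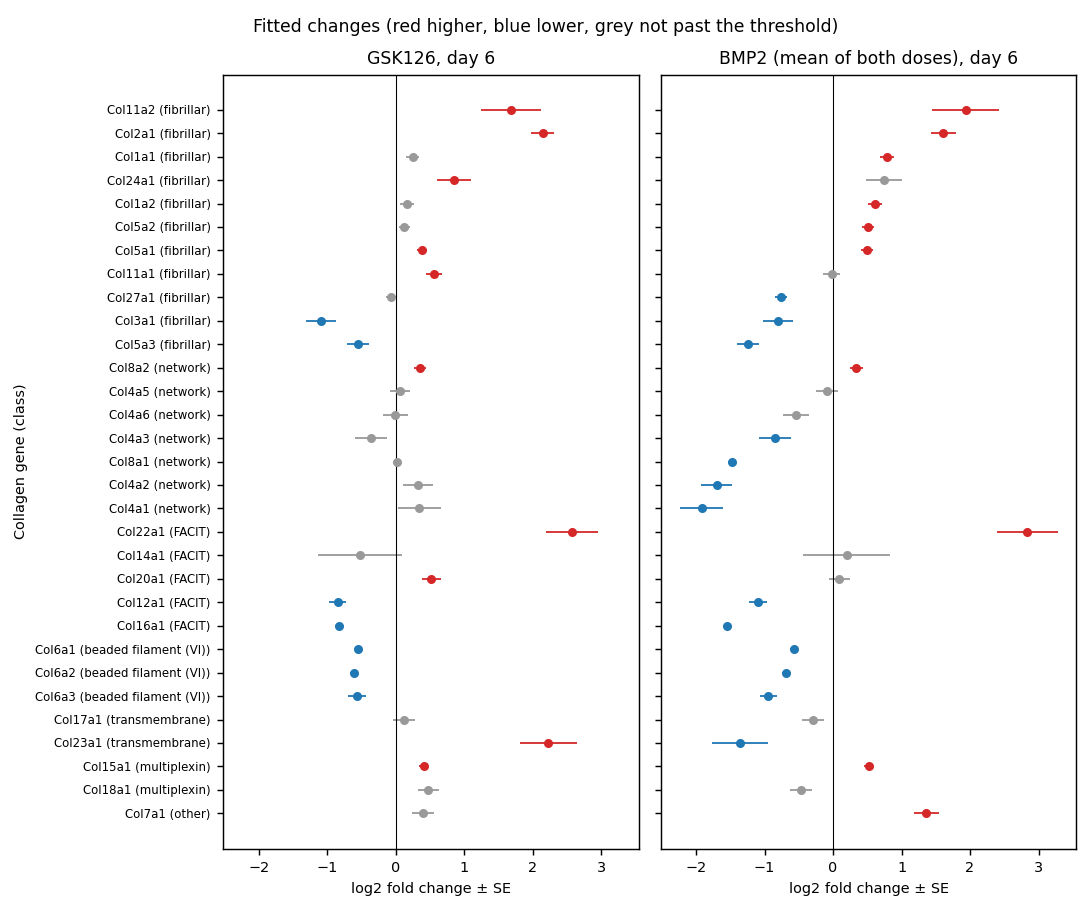
Points are log2 fold changes on day 6 for GSK126 and for BMP2 with standard errors (bars), for 31 of the 34 tested genes, with red for higher, blue for lower and grey for genes that did not pass. Col9a1, Col13a1 and Col25a1 are left out because a group held 3 read pairs or fewer. Col8a1 lies near 0 for GSK126 (0.02) and at -1.47 for BMP2, while Col2a1 lies at 2.15 and 1.61.

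Few collagen genes passed for either agent on day 1. With edgeR 0 of 34 collagen genes passed for GSK126, where 0% of all genes passed, and 2 had an unadjusted p under 0.05, as did 755 genes in all. DESeq2 called 1 collagen gene, Col15a1, limma-voom called 0, and a fit of the day 1 libraries alone called 17 (14 higher, 3 lower), where 16.2% of all genes in that fit passed. BMP2 on day 1 raised 1 collagen gene, Col15a1, and lowered 1, Col16a1, where 3.66% of all genes passed (1.8% higher, 1.86% lower). A fit of the day 1 libraries alone called 21 collagen genes for BMP2 (11 higher, 10 lower), where 38.9% of all genes in that fit passed. The GSK126 effect differed between days for 7 collagen genes (on day 6, 3 were more positive and 4 more negative), where 10.5% of all genes passed (3.94% more positive, 6.52% more negative). Col9a1, among the 3, was tested only through the day 6 libraries with GSK126. The BMP2 effect differed for 14 (on day 6, 4 were more positive and 10 more negative), where 9.14% passed (3.82% more positive, 5.33% more negative). Of the 10, 9 fell with BMP2 on day 6, and Col15a1 rose with it by 1.47 on day 1 and by 0.52 on day 6 (log2).

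The joint action of both agents on day 6 was tested as an interaction. Its model pooled 10 and 50 ng/ml as any BMP2, so its estimate of spread came from differences between these doses. Dose effects enter that spread, so a gene that did not pass cannot be read as lacking an interaction. With edgeR 0 of 34 collagen genes passed, where 0% of all genes passed, and 2 had an unadjusted p under 0.05, as did 1125 genes in all. Those 2 were Col11a2, with a log2 interaction of -2.05 ± 0.44 (adjusted p = 0.3), and Col3a1, with -1.07 ± 0.24 (adjusted p = 0.31). DESeq2 called both, limma-voom called 0, and the fit of day 6 libraries alone called 0. A log2 interaction is measured against the product of both single effects. Relative to vehicle on day 6, Col11a2 was 8.48-fold higher with GSK126, 7.33-fold with 10 ng/ml BMP2 and 21.1-fold with both. Col3a1 was at 0.766 of vehicle with GSK126, 0.667 with 50 ng/ml BMP2 and 0.250 with both. Each of these ratios compares 2 single libraries.

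The enzymes and carriers that process collagen were counted from a list of 36 genes, of which 33 were tested. Between days 18 were higher and 6 lower, which is 72.7% of 33 against 78% of all genes. The prolyl hydroxylase subunits P4ha1 and P4ha2 were higher by 1.31 ± 0.14 and 0.97 on the log2 scale, and P4ha3 was lower, with a change of -1.70. On day 6 GSK126 raised 4 and lowered 1, which is 15.2% against 28.3% of all genes. The largest rise was that of the cross-linking enzyme Loxl4 at 1.16 ± 0.13 (log2). BMP2 raised 8 and lowered 6 on day 6, which is 42.4% against 28.7% of all genes. The rises included the cross-linking enzyme Lox at 1.23 ± 0.30, the procollagen C-proteinase Bmp1 at 0.87 ± 0.10, and Creb3l1, a transcription factor that activates type I collagen genes, at 0.75, all log2. The related proteinase Tll1 fell by 3.13 on the log2 scale, and the cross-linking enzyme Loxl1 fell by 0.88. On day 1 BMP2 raised 3 and lowered 1, which is 12.1% against 3.66% of all genes. It raised Creb3l1 by 1.02 ± 0.20, Pcolce2 by 1.05 ± 0.21 and Plod2 by 0.40 (log2), and lowered P3h2. All of these day 1 calls were lost without the day 1 vehicle library.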

How the data were processed

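RNA from 12 MC3T3 sc4 libraries was analysed. The submitters' processing notes name the genome build mm10 and the programs bcl2fastq, TopHat2 2.0.6 and HTSeq. How HTSeq was set, its strand option and the gene models were not given in the sources used here. The authors deposited gene counts and RPKM values in 1 table. All 195176 counts above 0 were even, so halved counts were used as read pairs, and the deposited RPKM imply library totals larger than the gene sums. Counts were tested as deposited, and RPKM served to compare levels and were not tested.

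A gene was kept where 2 or more libraries reached 1 CPM, which left 12056 genes, scaled by TMM and tested with edgeR 4.0.16 (R 4.3.3) quasi-likelihood models with Benjamini-Hochberg adjustment. The additive model had 8 coefficients, namely day and, nested in day, GSK126 and both BMP2 doses. With 4 residual degrees of freedom, both days shared 1 estimate of spread. The interaction model crossed day, GSK126 and any BMP2. A count of 3 read pairs or fewer was treated as a floor, which came to 0.0528 to 0.0808 CPM. Of 23358 rows 69 shared a name, and none of these was a collagen gene. Alternatives were DESeq2 1.42.0, limma-voom (limma 3.58.1), library-size scaling, no filter, halved counts, a fit per day and each library left out. Scripts were tested on simulated counts.

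Every collagen gene may be named. Fold changes with errors and adjusted p-values were planned, per comparison, for the 6 largest rises and 6 largest falls with mean CPM of at least 1 and for a panel of common collagens. Only part of these is given, and the falls of Col4a1, Col4a2 and Col12a1 between days, for example, are not. A few others were chosen after their values were seen. The members and lists were chosen with earlier results of these data known. Upstream sequences are RefSeq's, in GRCm38.p6.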

Additional observations from a re-analysis of the deposited data

Results flagged for a closer look

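For the following genes the effect of an agent differed between day 6 and day 1 by a test of the difference itself (edgeR, adjusted over all genes). Each value is the log2 effect on day 6 minus that on day 1. No explanation was tested.

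For GSK126 the difference was 5.91 for Col9a1, 3.47 for Col22a1 and 1.94 for Col2a1. It was -0.87 for Col16a1, -0.82 for Col12a1, -0.70 for Col6a2 and -0.59 for Col6a1. The value of Col9a1 is a fitted one and no bound, because libraries of day 1 or without GSK126 held 0 to 8 read pairs. Col9a1 was tested only because it reached 1 CPM in the day 6 libraries with GSK126. The calls of Col2a1, Col16a1 and Col6a2 held in every alternative run. Those of Col12a1 and Col6a1 were lost without any single day 1 library, and those of Col9a1 and Col22a1 without any day 1 library at 0 or 50 ng/ml BMP2. Without the day 6 library with 10 ng/ml BMP2 and GSK126 the calls of Col9a1, Col12a1 and Col22a1 were lost, and without that with 10 ng/ml alone those of Col9a1 and Col12a1.

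For BMP2 the difference was 1.25 for Col7a1, 1.05 for Col2a1, 0.62 for Col5a2 and 0.62 for Col1a1. Network and FACIT genes gave -1.52 for Col4a2, -1.24 for Col8a1, -1.14 for Col16a1 and -1.13 for Col12a1. Type VI genes gave -1.13 for Col6a3, -0.81 for Col6a2 and -0.68 for Col6a1. The others were -1.42 for Col5a3, -0.96 for Col15a1 and -0.59 for Col27a1. The calls of Col8a1, Col15a1 and Col16a1 held in every alternative run. Each of the other 11 was lost without at least 1 day 1 library, and those of Col1a1, Col2a1, Col4a2 and Col7a1 also without at least 1 day 6 library. The call of Col6a3 was also lost with DESeq2, that of Col1a1 with halved counts, and the GSK126 call of Col22a1 with limma-voom.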

How the results depend on the processing

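For single genes, 119 results were recomputed under alternatives in 2067 cases: 1713 kept their direction and side of the threshold, 313 lost the call, 36 gained one and 5 reversed, all 5 when 1 library was left out. These were Col25a1 between days without the day 6 library with 10 ng/ml BMP2 and GSK126 (-0.26 to 3.51 over left-out libraries), and the GSK126 effect on day 6 without either day 6 library with 50 ng/ml on Col4a1 (-0.17 to 0.81 over left-out libraries) and on Col4a2 (-0.031 to 0.66). Fits of a single day called 17 collagen genes for GSK126 on day 1 and 21 for BMP2 on day 1, against 10 and 15 on day 6 and 0 for dose; they hold 6 libraries. DESeq2 called 1 for GSK126 on day 1, 4 for BMP2 on day 1 and 2 for the interaction. The cause of these differences was not tested. Leaving out each library gave 27 to 30 calls between days, 0 to 0 for GSK126 on day 1, 9 to 22 for GSK126 on day 6, 1 to 6 for BMP2 on day 1, 19 to 25 for BMP2 on day 6, 3 to 18 for dose, 3 to 16 and 3 to 21 for the differences between days of GSK126 and BMP2. The interaction gave 0 to 1 over 10 libraries, since it could not be fitted without either of the day 6 libraries that lacked BMP2. The lowest of these for GSK126 on day 6 came without the library with 10 ng/ml BMP2 and GSK126. Scaling by library size alone moved the median log2 change of all genes from 0.03 to -0.18 between days and from -0.0017 to -0.15 for BMP2 on day 6, shifts of -0.21 and -0.14, and collagen calls were then 18 higher and 9 lower and 10 higher and 15 lower. No paired analysis was possible because the labels carry no replicate numbers to pair by, and the additive fit already compares libraries matched by treatment. Counts of a few read pairs limit Col9a1, Col13a1 and Col25a1.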
